A study of Mus musculus with 4 samples.

Results

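The 10 genes described here, Spp1, Lpl, Apoe, Cd68, Lgals3, Itgax, Clec7a, Cst7, Axl and Gpnmb, are known from microglia and macrophages that take up dying cells and myelin. They were looked up by symbol among the 24062 genes of the count table, and all 10 were found. The list was drawn up with the genotype contrast of these libraries in view, so the values that chose the members are the same values described below. Levels and fold changes of the 10 genes are therefore given as a description, with no test.

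RNA-seq was performed on retinas of E13.5 mouse embryos of a mixed C57BL/6 and 129 strain. There were 2 wildtype libraries and 2 libraries of the conditional knockout, which the labels call Nrf1-CKO and whose genotype is Nrf1 f/f;Six3-Cre. In the knockout, Cre is expressed from the Six3-Cre transgene in retinal progenitor cells, and it deletes 1 exon of Nrf1, which encodes nuclear respiratory factor 1, a transcription factor of mitochondrial genes. Each library was made from retinas of several littermates pooled together, so the spread between libraries of a genotype is a spread between pools.

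Microglia are the resident macrophages of the brain and retina. They arise from yolk sac progenitors, enter the retina during embryonic life and are not made by the retinal progenitor cells in which Six3-Cre acts. When neurons die, microglia clear them, and cells in this state are known to carry more osteopontin (Spp1), lipoprotein lipase (Lpl), apolipoprotein E (Apoe), the pattern receptor Dectin-1 (Clec7a), the integrin subunit CD11c (Itgax) and galectin-3 (Lgals3). A bulk library cannot separate a higher number of such cells from more RNA of these genes per cell.

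The sequence in front of the genes is shown first for 5 members, because the 10 genes are often described together, as a shared programme. RefSeq (GRCm38.p6) gave 13 windows for 9 members, each from 250 bases before to 50 bases after a start site, and no window for Lpl. Letters in capitals mark matches, on either strand, to the motifs named after the sequences. The windows are those of Spp1 (chr5:104434861-104435160, plus strand), Clec7a (chr6:129472730-129473029, minus strand), Itgax (chr7:128129300-128129599, plus strand), Lgals3 (chr14:47373610-47373909, plus strand) and Cd68 (chr11:69666121-69666420, minus strand).
Spp1: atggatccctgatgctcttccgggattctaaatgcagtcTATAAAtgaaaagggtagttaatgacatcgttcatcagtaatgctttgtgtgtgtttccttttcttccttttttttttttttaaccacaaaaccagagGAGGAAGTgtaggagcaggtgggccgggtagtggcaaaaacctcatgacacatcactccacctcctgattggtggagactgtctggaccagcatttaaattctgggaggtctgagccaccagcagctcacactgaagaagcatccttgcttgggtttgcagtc
Clec7a: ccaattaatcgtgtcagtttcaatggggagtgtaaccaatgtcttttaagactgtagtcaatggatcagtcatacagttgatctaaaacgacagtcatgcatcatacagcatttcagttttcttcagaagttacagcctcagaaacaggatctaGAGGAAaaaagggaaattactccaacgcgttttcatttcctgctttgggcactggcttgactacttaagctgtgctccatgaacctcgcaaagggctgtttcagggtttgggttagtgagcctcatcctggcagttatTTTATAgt
Itgax: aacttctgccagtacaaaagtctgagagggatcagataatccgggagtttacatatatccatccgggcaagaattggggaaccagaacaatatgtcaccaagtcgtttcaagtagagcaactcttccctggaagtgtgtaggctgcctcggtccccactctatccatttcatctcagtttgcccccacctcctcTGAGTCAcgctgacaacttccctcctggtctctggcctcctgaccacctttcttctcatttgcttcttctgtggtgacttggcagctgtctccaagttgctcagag
Lgals3: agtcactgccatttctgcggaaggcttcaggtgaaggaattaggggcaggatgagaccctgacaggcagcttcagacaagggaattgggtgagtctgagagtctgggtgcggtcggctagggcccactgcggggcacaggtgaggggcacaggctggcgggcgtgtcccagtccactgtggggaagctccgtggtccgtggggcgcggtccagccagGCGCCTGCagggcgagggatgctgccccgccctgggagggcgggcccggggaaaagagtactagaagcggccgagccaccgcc
Cd68: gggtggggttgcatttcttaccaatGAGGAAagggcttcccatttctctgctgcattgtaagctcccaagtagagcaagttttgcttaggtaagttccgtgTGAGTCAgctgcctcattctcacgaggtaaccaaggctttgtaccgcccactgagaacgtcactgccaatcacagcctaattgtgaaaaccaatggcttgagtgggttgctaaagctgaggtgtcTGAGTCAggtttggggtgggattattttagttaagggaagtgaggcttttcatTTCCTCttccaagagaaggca

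The core of the site bound by PU.1 (Spi1), the master regulator of macrophages, was searched as GAGGAA. It was found in 7 windows of 5 members, Spp1, Apoe, Cd68, Clec7a and Axl, and in 28.3% of all 32851 windows of the table. In Spp1 the core lay 113 bases before the start site, within the longer form GAGGAAGT that 3.2% of windows hold. The AP-1 motif TGANTCA was found in Cd68, Itgax, Cst7 and Gpnmb and in 7.81% of all windows. In Itgax it began 56 bases before the start site, and Cd68 held it at 149 and at 24 bases before. The NRF1 motif was searched as GCGCATGC, which 2.71% of windows hold, and none of the 13 windows held it. With a free middle base, as GCGCNTGC (9.61% of windows), it was found only in Lgals3, 33 bases before the start site. The E-box CACGTG (7.15% of windows) and the M-box TCATGTG (3.77%), read by Tfeb and Mitf, were in none of the 13 windows. The letters TATAAA of the TATA box were found in 13.6% of windows and in those of Spp1 (211 bases before the start site), Apoe (100 and 96 bases before) and Clec7a (42 bases after), none of them at the usual distance of a TATA box just before the start. A match of letters is no evidence that a factor binds, and these windows leave out distant enhancers.

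Depth was 74577660 to 85933945 reads on genes, and 15762 genes had enough reads for a test. Reads of the targeted gene, Nrf1, numbered 9052 and 7789 in wildtype and 8594 and 8284 in knockout libraries (log2 fold change -0.03 ± 0.07, standard error, with edgeR's adjusted p = 0.794). Reads summed over the whole gene do not check the deletion of 1 exon. Markers of the other tissues around the retina differed between the libraries as well. The 12 lens markers summed to 174 and 440 CPM (counts-per-million, scaled to the reads on genes) in the wildtype and to 8180 and 3455 CPM in the knockout. All further gene lists below are summed and counted in the same way.

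All 9 members with enough reads were higher in both knockout libraries than in both wildtype libraries, with log2 fold changes from 0.67 for Axl to 3.55 for Clec7a and a median of 1.47. On the scale of the normalized values that the authors deposited, the median was 0.71, with 1.43 for Clec7a, 1.73 for Spp1, 0.65 for Lgals3 and 0.59 for both Itgax and Cd68. Of 66 other called genes covered by the naming rule, 35 had a log2 fold change more than 1.5 times smaller there, 8 were no longer called and none changed sign. Of all 15762 genes tested, 30.9% had both knockout libraries above both wildtype libraries, and the median log2 fold change was 0.00073. All 9 also passed the thresholds used here for a call, a fold of 1.4 or more together with edgeR's adjusted p no higher than 0.2, which 12.8% of all genes passed in the upward direction and 8.04% downward. Nothing is read from these counts, since the contrast chose the genes. Cst7, which encodes the cysteine protease inhibitor cystatin F, had too few reads for the fit.

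**Figure D1:**
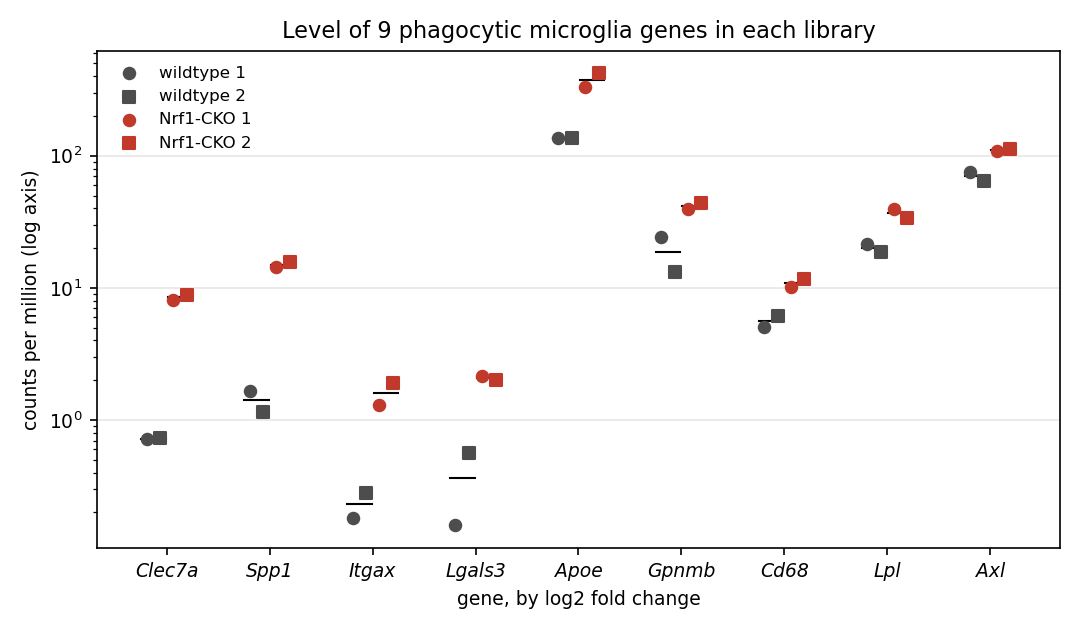
Level of 9 of the 10 genes in each library, in CPM on a log axis; points are libraries (circles for replicate 1, squares for replicate 2, grey for wildtype and red for Nrf1-CKO) and black bars are the means of 2 libraries. For every gene shown the knockout points lie above the wildtype points, with the widest separation for Clec7a and Spp1, and Cst7 is left out because its wildtype libraries had 0 reads.

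Spp1 encodes osteopontin, a secreted protein that binds integrins and CD44 and is made by phagocytic microglia, osteoclasts and osteoblasts. The wildtype pair counted 146 and 86 reads, the knockout pair 1184 and 1307. Both knockout libraries stood far above both wildtype libraries, which differed by 1.44-fold from each other. The mean level was 1.41 ± 0.359 CPM in the wildtype and 15 ± 1.09 CPM in the knockout (SD, n = 2), 10.6-fold higher. The log2 fold change was 3.40 ± 0.20 (SE). Spp1 lies at chr5:104435118-104441050, and 18.8% of its exon bases are shared with another annotated transcript, Gm42793, on the same strand. Spp1 is among the genes that the study itself picked from these libraries.

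Partners of osteopontin, galectin-3 and Gpnmb were taken as a list of 10 genes (integrin subunits, Cd44, the syndecan Sdc4 and Lgals3bp), of which 7 were called higher and none lower, against 12.8% and 8.04% of all genes. At an adjusted p of at most 0.05, 6 of them were called higher. Cd44, the osteopontin and hyaluronan receptor, rose from 2.41 ± 0.903 to 5.34 ± 0.212 CPM (log2 fold change 1.15 ± 0.27, edgeR adjusted p = 0.0155). Itgb3, the integrin subunit that pairs with Itgav to bind osteopontin, rose from 1.96 ± 0.583 to 5.24 ± 0.902 CPM (1.41 ± 0.27, adjusted p = 0.00556). Itgav was abundant in both genotypes and rose by less, from 67.8 ± 2.66 to 102 ± 4.10 CPM (0.59 ± 0.08, adjusted p = 0.000928), and edgeR's test against a fold of 1.4 did not call it. Lgals3bp, a secreted binding protein of galectin-3, rose from 0.673 ± 0.193 to 2.26 ± 0.331 CPM (1.75 ± 0.37, adjusted p = 0.00886).

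Clec7a encodes Dectin-1, a receptor for beta-glucan on myeloid cells that signals through the kinase Syk. Wildtype reads were 63 and 54, and knockout reads were 676 and 729. The wildtype libraries hardly differed from each other, and neither did the knockout libraries. The level was 0.724 ± 0.00614 CPM in the wildtype and 8.47 ± 0.477 CPM in the knockout, 11.7-fold higher, with a log2 fold change of 3.55 ± 0.21. Its distance to the fold change of Spp1 is smaller than the standard error of either, and their order depended on the libraries and values used: Spp1 was the higher without wildtype replicate 1 (3.70 against 3.54) and with the deposited normalized values (1.73 against 1.43). The gene lies at chr6:129461591-129472779, where the GENCODE M21 annotation types it as a polymorphic pseudogene.

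Of 15 tested genes of Dectin-1 and ITAM signalling, 13 were called higher and none lower, and the median log2 fold change was 1.63. Syk rose from 5.38 ± 1.06 to 11.6 ± 2.63 CPM (1.10 ± 0.20, adjusted p = 0.00484). The adaptor Card9, which couples Dectin-1 to NF-kB, counted 50 and 49 wildtype against 107 and 134 knockout reads, and its adjusted p of 0.0534 passed only the wider threshold; without Nrf1-CKO replicate 2 (log2 fold change 1.06), with the deposited values (0.32) and with the test against a fold of 1.4 it was no longer called. The ITAM adaptors rose: Fcer1g by 1.78 ± 0.24 on the log2 scale (adjusted p = 0.00111) and Tyrobp by 1.86 ± 0.15 (adjusted p = 0.000123). The guanine nucleotide exchange factor Vav1 rose from 1.31 ± 0.0999 to 7.19 ± 0.396 CPM (2.45 ± 0.20, adjusted p = 0.00013), and the phosphatase Inpp5d, a brake on ITAM signalling, rose from 5.22 ± 0.193 to 19.2 ± 4.50 CPM (1.88 ± 0.17, adjusted p = 0.000206). The 2 tested genes that were not called, Bcl10 and Malt1, act in many cell types.

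Itgax encodes CD11c, the alpha subunit of complement receptor 4, and is typical of dendritic cells and of activated microglia. Its wildtype reads were 16 and 21, its knockout reads 107 and 159. Both knockout libraries lay above both wildtype libraries, on low counts. The level was 0.233 ± 0.071 CPM in the wildtype and 1.60 ± 0.448 CPM in the knockout, with a log2 fold change of 2.79 ± 0.48, or 0.59 with the deposited normalized values. Itgb2, the beta subunit that CD11c needs to reach the cell surface, rose from 0.694 ± 0.125 to 3.06 ± 0.546 CPM (2.14 ± 0.32, adjusted p = 0.00178, and 0.67 with the deposited values). Among dendritic cell markers, Flt3 had at most 7 reads in any library, and Xcr1 had 0 in all 4. Zbtb46, which endothelium also expresses, had 1711 and 1516 wildtype against 1493 and 1327 knockout reads.

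Lgals3 encodes galectin-3, a lectin that binds glycans on cell surfaces and damaged lysosomes. In the wildtype 14 and 42 reads were counted, in the knockout 180 and 166. The wildtype libraries differed by 3.54-fold, more than for any other member with reads in both. Exact Poisson intervals of their counts, 7.65 to 23.5 and 30.3 to 56.8 reads, do not overlap. Such intervals cover counting error only, not the spread between pools, and are not scaled to depth. The lowest ratio of a knockout to a wildtype library was 3.54 in CPM and the highest 13.6. The log2 fold change was 2.54 ± 0.55. It was 1.88 without wildtype replicate 1 and 3.70 without wildtype replicate 2, so its size rests on which wildtype library is used. With the deposited normalized values it was 0.65.

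Apoe encodes apolipoprotein E, the main lipoprotein of neural tissue, which astrocytes, Mueller glia and microglia make. Its counts were 11871 and 10037 reads for wildtype, and 27600 and 34726 for knockout. Both knockout libraries were above both wildtype libraries, and replicate 2 was the higher of the knockout pair. The level was 135 ± 0.161 CPM in the wildtype and 376 ± 61.9 CPM in the knockout, 2.78-fold higher (log2 fold change 1.47 ± 0.11). Apoe alone made up 51.4% to 64.5% of the summed CPM of the 10 genes in each library.

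Lpl encodes lipoprotein lipase, which frees fatty acids from lipoproteins. Wildtype libraries held 1887 and 1394 reads, knockout libraries 3310 and 2816. The groups did not overlap, and the difference was modest: 20.2 ± 1.95 CPM in the wildtype against 36.9 ± 4.11 CPM in the knockout, with a log2 fold change of 0.87 ± 0.11. Gpihbp1, the endothelial protein that anchors the lipase, had 55 and 2 wildtype reads against 63 and 59 knockout reads and was not called (adjusted p = 0.438); it was called without wildtype replicate 1 (log2 fold change 4.70), and with the replicate block (1.81). Lmf1, the maturation factor of the lipase, was 21.5 ± 3.11 and 18.2 ± 1.37 CPM and was not called (adjusted p = 0.221).

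Genes of lipoprotein and lipid handling went both ways. Of 19 tested, 6 were called higher and 3 lower, with a median log2 fold change of 0.32; 3 were higher at an adjusted p of at most 0.05, and 2 were higher without Nrf1-CKO replicate 2. The cholesterol exporter Abca1 rose from 21.7 ± 0.423 to 91.8 ± 2.45 CPM (2.08 ± 0.08, adjusted p = 1.9e-05), the largest fold change on this list among genes with at least 1 CPM. Mylip, which degrades lipoprotein receptors, rose by 0.61 ± 0.13 on the log2 scale (adjusted p = 0.00877) and was not called with the deposited values (0.44) or with glmTreat, edgeR's test against a fold of 1.4. Vldlr and Lrp8, receptors that bind apolipoprotein E, were among the genes called lower: Vldlr fell from 49.7 ± 4.58 to 29.5 ± 6.74 CPM (-0.75 ± 0.14, adjusted p = 0.00617) and Lrp8 from 70.9 ± 7.06 to 46.9 ± 4.02 CPM (-0.60 ± 0.10, adjusted p = 0.00268). Without wildtype replicate 2 (-0.49) and with glmTreat, Lrp8 was no longer called.

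Axl encodes a receptor tyrosine kinase that recognises phosphatidylserine on dying cells through the bridging protein Gas6. For Axl, 6548 and 4805 wildtype reads stood against 9057 and 9334 knockout reads. The groups were separate, and the difference was the smallest among the 9: 69.8 ± 7.06 CPM against 111 ± 2.68 CPM, with a log2 fold change of 0.67 ± 0.09. Gas6 rose from 9.12 ± 0.833 to 20.2 ± 0.639 CPM (1.15 ± 0.12, adjusted p = 0.000315). The related receptor Mertk rose from 5.82 ± 0.481 to 12.7 ± 1.18 CPM (1.13 ± 0.15, adjusted p = 0.000835). The third receptor of the family, Tyro3, had 57.6 ± 3.28 and 57.9 ± 8.22 CPM and was not called (adjusted p = 0.967), and the other bridging protein, Pros1, had 16.3 ± 1.16 and 19.2 ± 2.26 CPM (adjusted p = 0.224).

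Of 25 tested engulfment receptors and bridging proteins, a list that leaves out Axl, 14 were called higher and 1 lower, with a median log2 fold change of 0.59. The scavenger receptor Stab1, which the study picked from these libraries, rose from 31.2 ± 0.900 to 129 ± 18 CPM (2.04 ± 0.11, adjusted p = 7.0e-05). Cd36, a receptor for apoptotic cells and oxidised lipoproteins, rose from 0.746 ± 0.070 to 4.72 ± 0.577 CPM (2.66 ± 0.27, adjusted p = 0.000267, and 0.94 with the deposited values), and Anxa1, an annexin that marks dying cells, rose from 2.19 ± 0.0315 to 8.58 ± 1.28 CPM (1.97 ± 0.19, adjusted p = 0.000236). The gene called lower was Bai1, a neural phosphatidylserine receptor, which fell from 19.9 ± 2.48 to 12.8 ± 0.139 CPM (-0.64 ± 0.12, adjusted p = 0.00602) and was not called with the deposited values (-0.46) or with glmTreat.

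Cd68 encodes a lysosomal membrane glycoprotein of macrophages. Reads came to 440 and 457 for wildtype, and to 849 and 962 for knockout. The groups did not overlap, at 5.59 ± 0.804 and 10.9 ± 0.995 CPM, with a log2 fold change of 0.97 ± 0.16. Cst7 encodes an inhibitor of lysosomal cathepsins. Both wildtype libraries had 0 reads, and the knockout libraries had 2 and 9. The pooled knockout level was 3.58 times a floor of 3 reads over the wildtype group, on 11 reads in all, 9 of them from replicate 2. This ratio is not a lower bound. Exact 95% Poisson intervals were 0.242 to 7.22 and 4.12 to 17.1 reads for the knockout. For each wildtype library the interval was 0 to 3.69 reads, which overlaps that of knockout replicate 1. The intervals cover counting error only. Copies made by PCR inflate such counts beyond what the intervals allow for.

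Gpnmb encodes a transmembrane glycoprotein of phagocytic macrophages that is also a melanosome protein of pigment cells. Wildtype reads came to 2116 and 978, knockout reads to 3273 and 3600. The knockout libraries were above both wildtype libraries, and the wildtype pair differed by 1.83-fold. The level was 18.7 ± 7.76 CPM in the wildtype and 41.5 ± 2.91 CPM in the knockout (log2 fold change 1.15 ± 0.23). Mitf, the pigment cell factor that can switch on Gpnmb, rose from 19.5 ± 2.48 to 40.4 ± 2.40 CPM (1.05 ± 0.11, adjusted p = 0.000318). Tfeb, a lysosomal regulator of the same family, rose from 4.07 ± 0.189 to 6.70 ± 0.796 CPM (0.72 ± 0.18, adjusted p = 0.0192; not called with the deposited values, at 0.38, or with glmTreat), and Tfe3 was 37.4 ± 3.52 and 41.8 ± 0.514 CPM (adjusted p = 0.255).

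Of 26 tested lysosomal genes, 11 were called higher and none lower, and the median log2 fold change was 0.45. The highest 3 at 1 CPM or more were cathepsins of immune cells. Ctsh rose from 3.66 ± 0.13 to 10.5 ± 0.0378 CPM (1.51 ± 0.15, adjusted p = 0.00026), Ctsc from 16.3 ± 0.469 to 41.5 ± 2.02 CPM (1.35 ± 0.09, adjusted p = 9.9e-05) and Ctss from 8.67 ± 2.0 to 21.4 ± 1.34 CPM (1.30 ± 0.16, adjusted p = 0.000675). Widely used lysosomal genes such as Lamp1 (log2 fold change 0.19), Psap (-0.11) and Atp6v1a (-0.08) were not called.

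Levels were compared between the members per exon length, as RPKM, which is CPM per kilobase of the merged exons. In the wildtype Apoe stood first at 63.3 ± 0.0752 RPKM, followed by Axl at 13.9 ± 1.4, Cd68 at 4.45 ± 0.64, Gpnmb at 2.87 ± 1.19, Lpl at 1.93 ± 0.186, Spp1 at 0.858 ± 0.218, Clec7a at 0.274 ± 0.00233, Lgals3 at 0.195 ± 0.155 and Itgax at 0.0485 ± 0.0148 RPKM. The neighbours Cd68 and Gpnmb, Gpnmb and Lpl, Clec7a and Lgals3, and Lgals3 and Itgax did not differ beyond their spread (means ± SD overlap). Cst7 came last, at 0 RPKM. In the knockout Spp1 moved from the sixth to the third place, at 9.12 ± 0.663 RPKM, beside Cd68 at 8.69 ± 0.792, from which it did not differ beyond the spread. Apoe, at 176 ± 28.9 RPKM, and Axl, at 22 ± 0.533, came before it, and below Cd68 came Gpnmb at 6.36 ± 0.447, Lpl at 3.53 ± 0.392, Clec7a at 3.21 ± 0.181, Lgals3 at 1.12 ± 0.061, Itgax at 0.334 ± 0.0933 and Cst7 at 0.0674 ± 0.0607 RPKM, with Lpl and Clec7a not apart beyond their spread. The order of the middle genes depends on the length used. With the longest transcript of the basic annotation, Gpnmb took the third place in both genotypes, at 5.05 and 11.2 RPKM, and Spp1 took the fourth in the knockout, at 9.97 RPKM.

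The core macrophage genes, Aif1, Csf1r, Cx3cr1, Ptprc, Itgam, Spi1, Emr1 and Fcgr1, were summed as a reference for how much macrophage RNA a library held. Their sum was 54.2 and 49.2 CPM in the wildtype and 157 and 182 CPM in the knockout. Csf1r alone made up 46.5% to 54.3% of it. All 8 were called higher, and their median log2 fold change was 1.68. Each member was then divided by this sum within the library. The study had picked Cx3cr1 from these libraries, and the other 7 were chosen with earlier results known, so these ratios too are a description.

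On the CPM scale, the members fell into separate groups relative to the core macrophage genes. Each ratio restates the gene's own fold change against that of the sum. Clec7a was 3.58-fold, Spp1 3.27-fold and Itgax 2.06-fold higher in the knockout, with both knockout libraries above both wildtype libraries, as for 1.73% of all genes tested. The ratio of Clec7a was 0.0133 and 0.0148 in wildtype libraries against 0.0519 and 0.0485 in knockout libraries, and that of Spp1 was 0.0308 and 0.0236 against 0.0909 and 0.0870. Lgals3 overlapped between the genotypes, at 0.00295 and 0.0115 for wildtype and 0.0138 and 0.011 for knockout. Axl, Lpl, Cd68, Gpnmb and Apoe lay lower in the knockout than in the wildtype relative to macrophage genes, with ratios of the means of 0.488, 0.566, 0.593, 0.688 and 0.843. Since the sum itself rose, 91.6% of all genes lay lower in both knockout libraries on this ratio, and nothing particular to these 5 genes is read from it. With the deposited normalized values the order of the members differed. The log2 fold change there was 1.73 for Spp1, 1.43 for Clec7a and 0.59 for Itgax. For Apoe it was 1.42, for Gpnmb 0.98, for Lpl 0.71, for Lgals3 0.65, for Axl 0.63 and for Cd68 0.59. The core gene Emr1 was at 1.53 there, and the ratios were taken from CPM only.

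The split of the CPM ratios was the same in direction for Clec7a, Spp1, Itgax, Axl, Lpl and Cd68 when the reference was the 3 C1q genes or Csf1r alone. Spp1 was 2.46-fold and 3.69-fold higher relative to these references, Clec7a 2.67-fold and 4.05-fold, and Itgax 1.52-fold and 2.34-fold. Of all genes, 1.12% and 2.24% were higher in both knockout libraries relative to them, and 93.8% and 90.3% were lower in both. For Itgax relative to the C1q genes the gap was narrow, at 0.00697 and 0.0124 for wildtype and 0.0135 and 0.016 for knockout. These wildtype ratios rest on 16 and 21 Itgax reads. Without Csf1r in the sum of core genes, an alternative chosen after seeing the data, Clec7a was 3.16-fold, Spp1 2.90-fold and Itgax 1.81-fold higher, with 1.42% of all genes higher and 92.8% lower in both knockout libraries. Apoe and Gpnmb overlapped between the genotypes relative to Csf1r, and Lgals3 was higher in both knockout libraries only relative to Csf1r. A gene with other sources in the eye, such as pigment cells, mesenchyme or vessels, need not follow macrophage genes, and the share of each source was not tested.

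**Figure D2:**
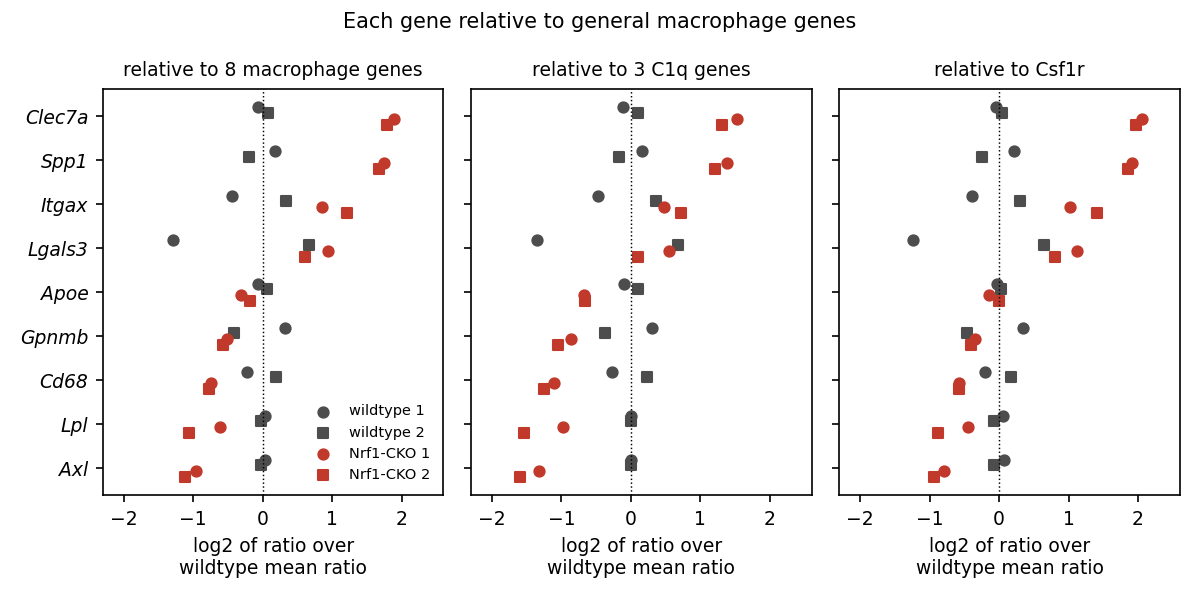
Each gene divided by the summed CPM of 8 core macrophage genes, of 3 C1q genes or by Csf1r, shown as the log2 of a library's ratio over the mean wildtype ratio; grey points are wildtype and red points Nrf1-CKO libraries. Clec7a, Spp1 and Itgax lie to the right of the wildtype in all 3 panels, and Cd68, Lpl and Axl to the left.

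Genes of macrophage and microglia identity were mostly higher in the knockout. Of 29 tested, 25 were called higher and none lower, and the median log2 fold change was 1.62, against a median of 1.47 for the 9 members. The microglial gene Fcrls rose from 5.18 ± 0.301 to 28.5 ± 4.86 CPM (2.46 ± 0.15, adjusted p = 7.0e-05), the F4/80 gene Emr1 from 3.95 ± 0.0356 to 21.2 ± 2.50 CPM (2.42 ± 0.14, adjusted p = 7.0e-05) and the factor Spi1 from 0.929 ± 0.0214 to 4.79 ± 0.355 CPM (2.37 ± 0.25, adjusted p = 0.000304). The 4 tested genes that were not called were P2ry12 (6.28 and 4.89 CPM in the wildtype and 5.92 and 6.59 CPM in the knockout), Siglech, Selplg and Lyve1. P2ry12, Siglech and Selplg are genes of resting microglia, and the expression of P2ry12 is known to drop in activated cells. Sall1 and Tmem119, also microglial, were called higher at log2 fold changes of 0.71 ± 0.19 and 0.72 ± 0.17 (adjusted p = 0.0254 and 0.0172).

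Of 27 other genes of phagocytic or disease-associated microglia, 20 were called higher and 1 lower, with a median log2 fold change of 1.17. Trem2, a lipid receptor of microglia, rose from 1.61 ± 0.0665 to 8.65 ± 2.88 CPM (2.42 ± 0.26, adjusted p = 0.000315; 1.12 with the deposited values). Lilrb4, an inhibitory receptor, rose from 0.229 ± 0.000586 to 1.91 ± 0.199 CPM (3.05 ± 0.42, adjusted p = 0.00109; 0.68 with the deposited values). The chemokine Ccl3 had 1 and 17 wildtype reads against 130 and 194 knockout reads (4.07 ± 0.81, adjusted p = 0.00723), and its log2 fold change was 3.09 without wildtype replicate 1 and 7.25 without wildtype replicate 2, and 0.83 with the deposited values. Fabp5, a fatty acid binding protein that neural cells also make, fell from 47.8 ± 8.06 to 32.8 ± 4.84 CPM (-0.54 ± 0.14, adjusted p = 0.0202) and was not called without wildtype replicate 1 (-0.35) or Nrf1-CKO replicate 2 (-0.40), with the deposited values (-0.46) or with glmTreat. Ctsb and Ctsd, the abundant cathepsins of this state, rose by 1.17 ± 0.08 and 1.25 ± 0.10 on the log2 scale (adjusted p = 9.9e-05 and 0.000119).

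**Figure D3:**
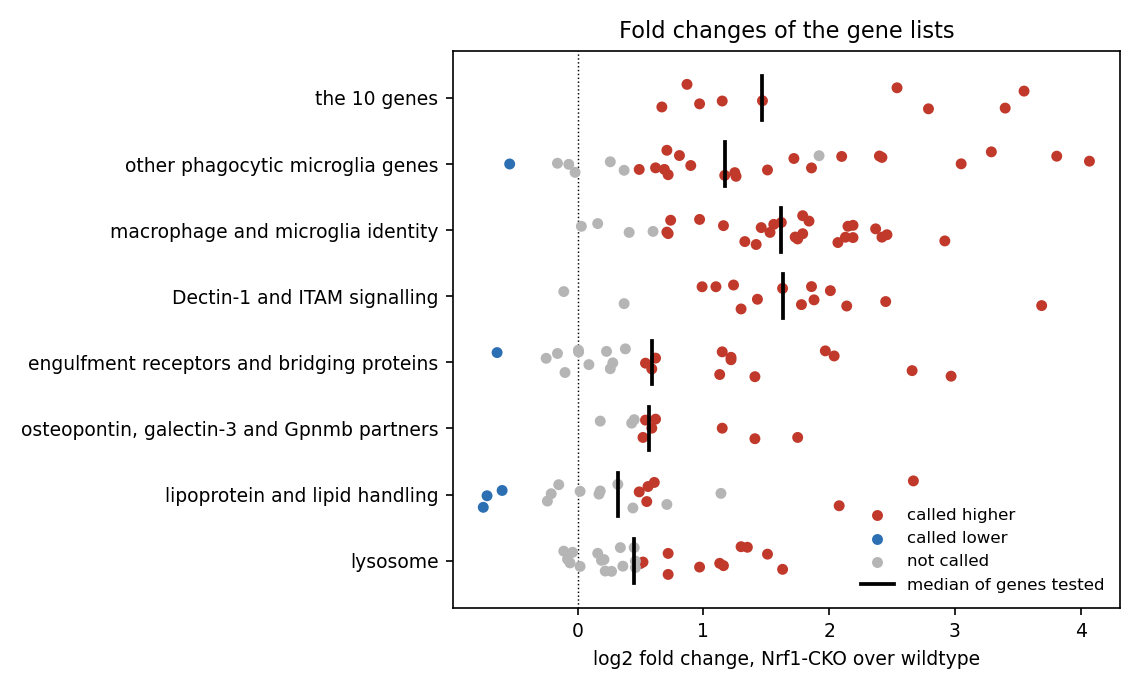
Log2 fold changes of the genes tested in 8 lists, with genes called higher in red, called lower in blue and not called in grey, and the median of each list as a black bar; 2 genes of the engulfment list with at most 3 wildtype reads are left out. The medians run from 0.32 for lipoprotein and lipid handling to 1.63 for Dectin-1 and ITAM signalling, and the members spread from 0.67 to 3.55.

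Inflammatory cytokines and enzymes were measured at few reads. Of 12 tested, 8 were called higher and 1 lower, 5 were higher at an adjusted p of at most 0.05, and 4 were higher without Nrf1-CKO replicate 2. In 4 of the 12 the wildtype libraries together had 3 reads or fewer. Tgfb1, a cytokine that maintains microglia, rose from 2.14 ± 0.230 to 5.82 ± 0.213 CPM (1.44 ± 0.20, adjusted p = 0.0013). Il1b had 1 and 0 wildtype reads against 28 and 21 knockout reads, and Il6 had at most 1 read in any library.

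A list of signals that attract or feed macrophages, which also holds receptors, had 6 of 11 tested genes called higher and 1 lower. Of the 6, Ccl2 (edgeR adjusted p = 0.189) and the receptor Ccr2 (adjusted p = 0.074) passed only the wider threshold. The growth factor Csf1 rose from 23.2 ± 1.64 to 40.8 ± 6.74 CPM (0.81 ± 0.12, adjusted p = 0.0018) and the neuronal chemokine Cx3cl1 from 5.47 ± 0.772 to 12.3 ± 0.911 CPM (1.17 ± 0.16, adjusted p = 0.000933). P2ry6, the microglial receptor for UDP from damaged cells, rose from 0.908 ± 0.0889 to 4.24 ± 0.430 CPM (2.22 ± 0.27, adjusted p = 0.00055). Cxcr4, a chemokine receptor of many cell types, fell from 51.0 ± 4.64 to 16.2 ± 6.65 CPM (-1.65 ± 0.23, adjusted p = 0.00111).

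Markers of tissues next to the retina moved in the same direction as the members, and their part in the members' values was not tested. Pigment epithelium and melanocyte markers summed to 353 and 262 CPM in the wildtype and 650 and 683 CPM in the knockout, with 8 of 11 called higher and none lower (1 lower without wildtype replicate 1, without Nrf1-CKO replicate 2 or with the replicate block). The visual cycle gene Rpe65 was at 0 reads in 3 of the 4 libraries. Periocular mesenchyme and fibroblast markers summed to 280 and 195 CPM against 435 and 368 CPM, with 7 of 12 called higher. Endothelial and pericyte markers had 9 of 12 called higher and Kdr, which retinal progenitors also express, called lower (200 and 211 CPM in the wildtype, 144 and 137 CPM in the knockout). Their sum was 323 and 320 CPM against 379 and 384 CPM with Kdr, and 123 and 109 CPM against 235 and 246 CPM without it. All 12 lens markers were called higher. The knockout library with more lens RNA, replicate 1, had less of Apoe, Spp1, Clec7a, Itgax, Cd68, Axl and Gpnmb and more of Lpl and Lgals3 than replicate 2. Some of these differences between the 2 pools were small, at 1.03-fold for Axl and 1.08-fold for Clec7a and Lgals3. Whether they go with lens RNA was not tested.

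Gpnmb was also divided by the summed CPM of the pigment markers. The ratio was 0.0685 and 0.0504 for wildtype, and 0.0606 and 0.0637 for knockout, which overlap. The ratios of Lpl, Apoe and Cd68 to the pigment markers overlapped as well, that of Axl was lower in the knockout, and those of Spp1, Clec7a, Itgax and Lgals3 were higher, by 4.92-fold, 5.27-fold, 3.0-fold and 2.40-fold, against 3.75% of all genes higher and 85.3% lower in both knockout libraries. Relative to the mesenchyme markers, Lpl, Cd68 and Axl overlapped between the genotypes, and the 6 other members with reads in every library were higher in both knockout libraries, from 1.35-fold for Gpnmb and 1.61-fold for Apoe to 6.35-fold for Spp1 and 6.76-fold for Clec7a. This held for 5.89% of all genes tested. Relative to the endothelium and pericyte markers, the order of several members turned on Kdr, the most abundant gene of that sum. Without Kdr, an alternative chosen after seeing the data, Spp1 was 5.15-fold, Clec7a 5.61-fold, Itgax 3.25-fold, Lgals3 2.67-fold and Apoe 1.33-fold higher, against 4.53% of all genes with both knockout libraries above both wildtype libraries. Cd68 and Gpnmb overlapped, and Axl (0.765 of the wildtype ratio) and Lpl (0.883) were lower in both knockout libraries, as were 85.1% of all genes. With Kdr in the sum all 9 members with reads in every library were higher, from 1.34-fold for Axl to 9.85-fold for Clec7a, as were 16% of all genes.

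Markers of blood cells were summed in the same way. Neutrophil and monocyte markers summed to 2.74 and 3.13 CPM in the wildtype and 8.31 and 6.89 CPM in the knockout, with 2 of 5 tested called higher, and 1 without wildtype replicate 1 or without Nrf1-CKO replicate 1. Mpo had 107 and 17 reads against 374 and 337, and Ngp and Ly6c2 had 8 reads or fewer in every library. Erythroid markers summed to 482 and 567 CPM against 626 and 630 CPM, almost wholly from Hbb-y, with 3 of 6 called higher, and none without wildtype replicate 1. Lymphocyte, dendritic and mast cell markers summed to 64.3 and 65.1 CPM against 48.6 and 43.5 CPM, mainly from Kit and Zbtb46, with none called higher and Kit called lower. Retinal progenitor and ganglion cell markers were not called higher in any of 13 genes, and 4 ganglion cell genes were called lower, among them Pou4f1 (-1.84 ± 0.18, adjusted p = 0.000261), Elavl4 (-1.48 ± 0.11, adjusted p = 9.9e-05) and Isl1 (-1.37 ± 0.13, adjusted p = 0.000233).

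**Figure D4:**
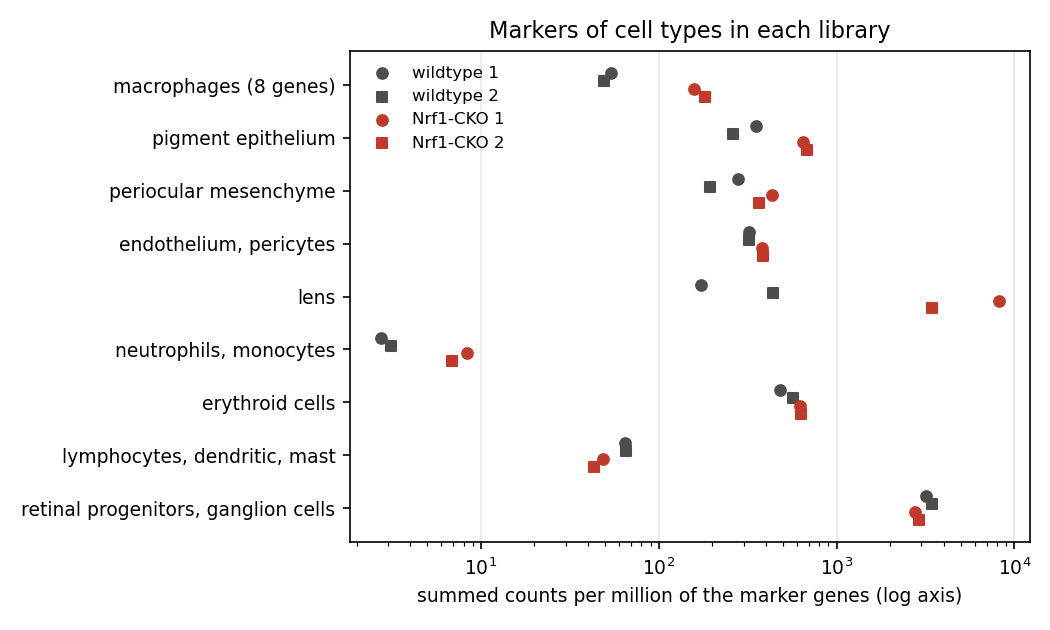
Summed CPM of the marker genes of 9 cell types in each library, on a log axis; grey points are wildtype and red points Nrf1-CKO libraries. The macrophage sum is 54.2 and 49.2 for wildtype, and 157 and 182 for knockout, and the lens sum differs more, from 174 and 440 to 8180 and 3455.

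The genes whose pattern over the 4 libraries was most like the members were found by the distance between log2(CPM + 0.5) values, centred on the wildtype mean, and the median of the 9 members, which was 0.0012 and -0.0012 for wildtype, and 1.29 and 1.58 for knockout libraries. Among genes with at least 1 CPM the closest 5 were Sash3 (distance 0.0676), Sla (0.0717), Pear1 (0.0827), Trib3 (0.0982) and Cd86 (0.102). Sash3 and Sla encode adaptors of blood cells, and Cd86 is a costimulatory molecule of macrophages and dendritic cells, at 0.601 ± 0.0268 CPM in the wildtype and 2.53 ± 0.621 CPM in the knockout. Pear1 rose from 2.37 ± 0.0594 to 7.1 ± 0.763 CPM and Trib3 from 1.03 ± 0.0683 to 3.55 ± 0.701 CPM. These are not counted here as macrophage genes, and the 5 are not read as a set of immune genes. With 4 libraries in 2 groups, many genes that are higher in the knockout share this shape.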

How the data were processed

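Retinas of 2 wildtype and 2 knockout pools were sequenced. Per the submitters' processing notes and the paper, the authors aligned reads to mm10 with TopHat2 2.7.2 and counted them with HTSeq. The deposited counts are whole reads, without normalization; 74.0% to 75.0% of all deposited counts fell in the HTSeq summary rows, which name no gene, and stayed out. The authors also deposited log2 normalized values, and the notes also name DESeq and limma, without saying which step or file they were used for.

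Genes were filtered with filterByExpr (minimum count 10), scaled with TMM and tested with edgeR 4.0.16 (quasi-likelihood, Benjamini-Hochberg) in R 4.3.3. The script was tested on simulated data. CPM use TMM-scaled sizes; ± is the SD of 2 libraries for levels and the standard error for log2 fold changes. Exon lengths are from GENCODE M21. Reads of overlapping genes cannot be told apart. Since each genotype had 2 pools, p-values measure the spread between pools.

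The members and lists were chosen with earlier results of these data known. Named genes are the members, up to 3 called genes in each direction per list at 1 CPM or more, partners of members, the 5 most similar genes and Nrf1; others were named after their values were seen. Ly6g was not matched, and Lilrb4a, Adgre1 and Adgrb1 were read as Lilrb4, Emr1 and Bai1. Some genes that the naming rule covers are counted in their lists and not reported by name here.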

Additional observations from a re-analysis of the deposited data

How the results depend on the processing

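The members were chosen from this contrast, so their calls say nothing of stability and only their values are given. The 14 alternatives run were DESeq2, library size only, upper-quartile scaling, no filter, at least 10 counts in every library, the replicate block, an adjusted p of 0.05, glmTreat against 1.4, limma on the deposited normalized values, scaling without marker and macrophage genes, and each library left out. The median log2 fold change of the members, 1.47, was 0.71 with the deposited values, where single genes ran from 0.59 for Cd68 and Itgax to 1.43 for Clec7a and 1.73 for Spp1. It was 2.01 without Gpnmb, an alternative chosen after seeing the data, and 1.29 to 1.66 with 1 library left out. Of all genes, 2024 were called higher and 1268 lower, limma on the deposited values called 945 and 723, and glmTreat called 1188 and 743. With glmTreat, 4 partner, 1 lipid, 7 lysosomal and 5 inflammatory genes were called higher.

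With the replicate block, 1970 genes were called higher and 1256 lower, and the median of the members was 1.46. Deviations of same-numbered libraries correlated at -0.00501 over genes, and the labels name no shared litter, so the libraries were not treated as paired.

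Nrf1 changed sign with upper-quartile scaling (0.006), and Tyro3 with library size only (-0.01), without Nrf1-CKO replicate 2 (-0.14) and without wildtype replicate 2 (-0.04). Neither was called, and the cause was not tested. Few reads limit Cst7, Itgax and Lgals3.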
